A study of Mus musculus with 6 samples.

Results

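The genes for Fc receptors and their partners were followed in dendritic cells (DC) sorted from mouse tumors. The 7 members, chosen by name and not by their values, were Fcgr1, Fcgr3, Fcgr4, Fcgr2b, Fcer1g, Fcgrt and Fcrla, out of 23224 gene symbols listed. All 7 were among the 13223 genes tested after low counts were removed, and Fcrla entered through the group in which it was high.

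MC57-SIY cells, a fibrosarcoma line carrying the model antigen SIY, grew under the skin of C57BL/6 mice, and tumors were taken on day 7. There were 3 groups of 2 bulk RNA libraries: CD103+ DC1 from Rag2-/- hosts (replicates 2 and 3), ISG+ DC from Rag2-/- hosts (replicates 2 and 3) and ISG+ DC from WT hosts (replicates 1 and 2). Tumors were pooled, and the labels name independent replicate experiments without saying which animals entered which library or how ISG+ DC were gated. Hosts without Rag2 have no mature B or T cells, and so make no antibody of their own.

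Fc receptors bind the constant part of antibodies. For IgG in the mouse, Fcgr1, Fcgr3 and Fcgr4 encode activating receptors, which reach the surface with a signalling chain encoded by Fcer1g. That chain carries an activation motif (ITAM) which, once phosphorylated, recruits the kinase Syk. Fcgr2b encodes the inhibitory receptor, whose ITIM motif recruits the phosphatase SHIP-1. On DC the balance of both kinds bears on uptake of immune complexes and on maturation. Fcgrt encodes the heavy chain of FcRn, which pairs with B2m and recycles IgG and albumin. Fcrla encodes an intracellular relative that binds immunoglobulin and is best known from B cells.

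Most members are neighbours on chromosome 1, and their sequences set what the counts can resolve. In the GRCm38 annotation (GENCODE M21) the order there was Fcrla, Fcgr2b, Fcgr4, Fcgr3 and Fcer1g, while Fcgr1 lay on chromosome 3 and Fcgrt on chromosome 7. The deposited counts were made on mm9, so no position of the counted features is given. The coding sequences of Fcgr2b and Fcgr3 were 86.7% identical over 782 aligned bases and shared 166 windows of 50 bases. The other pairs among Fcgr1, Fcgr2b, Fcgr3 and Fcgr4 reached at most 67.3% and shared 0 such windows, and no pair with Fcer1g, Fcgrt or Fcrla was aligned. The longest stretch common to both genes had 129 bases, starting at base 278 of the Fcgr2b coding sequence and at base 263 of that of Fcgr3. It is printed because reads inside it cannot be assigned to either gene:
Fcgr2b and Fcgr3: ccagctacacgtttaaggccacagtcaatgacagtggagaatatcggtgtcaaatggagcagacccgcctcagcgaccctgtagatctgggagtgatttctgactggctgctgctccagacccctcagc
The estimated counts bore the mark of this sharing. Values of Fcgr2b and of Fcgr3 were whole numbers in 0 of 6 libraries (tolerance 0.011), whereas the sum of the pair was whole in 6 of 6. Fcgr1, Fcgr4 and Fcrla were whole in 6 of 6, so their values do not depend on such a split. The split between Fcgr2b and Fcgr3 is therefore the counting program's estimate, and their sum is given beside each.

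Promoters of 4 members held at least 1 of 3 searched motifs, and those 4 are shown because they hold a match. The motifs were the interferon response element (GAAA, any 2 bases, GAAA), the gamma-activated site TTCNNNGAA and the PU.1 core GAGGAA, searched on both strands of the 250 bases before each start. All 7 members matched a RefSeq promoter (GRCm38.p6). The nearest 150 bases are printed on the gene's strand with matches in capitals, a match on the opposite strand appearing as its complement.
Fcgr1, chr3:96293970-96294119, minus strand: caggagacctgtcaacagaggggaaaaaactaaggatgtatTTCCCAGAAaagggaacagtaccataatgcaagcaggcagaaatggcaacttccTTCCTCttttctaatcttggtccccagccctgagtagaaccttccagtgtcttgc
Fcgr3, chr1:171059404-171059553, minus strand: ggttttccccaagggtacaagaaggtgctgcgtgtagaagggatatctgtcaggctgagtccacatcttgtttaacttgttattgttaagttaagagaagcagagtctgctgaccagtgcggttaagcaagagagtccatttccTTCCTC
Fcgr4, chr1:171018776-171018925, plus strand: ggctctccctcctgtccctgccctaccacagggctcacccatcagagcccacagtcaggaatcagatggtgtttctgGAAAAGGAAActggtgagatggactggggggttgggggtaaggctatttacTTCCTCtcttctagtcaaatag
Fcrla, chr1:170927584-170927733, minus strand: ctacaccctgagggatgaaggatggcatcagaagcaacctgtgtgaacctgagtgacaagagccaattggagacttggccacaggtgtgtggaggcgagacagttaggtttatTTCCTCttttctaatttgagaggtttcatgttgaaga
In Fcgr1 the gamma-activated site lay at -109 to -101 from the start and the PU.1 core at -55 to -50. Fcgr4 held the interferon response element at -73 to -64 and the PU.1 core at -22 to -17. Fcgr3 had only the PU.1 core, at -6 to -1. Fcrla, which was lower in ISG+ DC, held the PU.1 core at -37 to -32 and an interferon response element at -192 to -183, outside the printed bases. Windows of Fcgr2b, Fcer1g and Fcgrt held none of these letters. Of 32851 promoter windows of that length, 2.98% held the interferon response element, 7.02% the gamma-activated site and 23.3% the PU.1 core. A match of letters is a description and not a bound site.

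**Figure D1:**
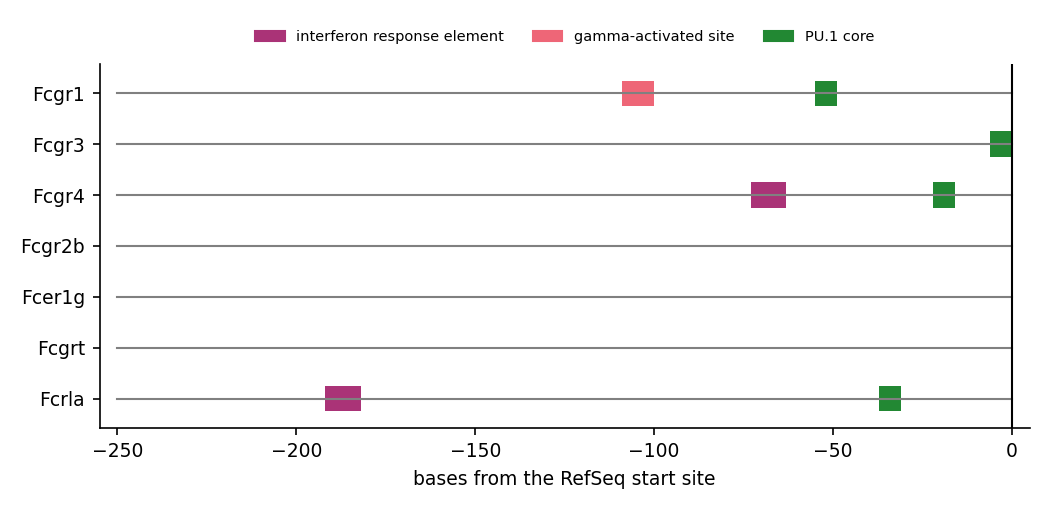
Position of each motif match in the promoter windows of the 7 members, with distance from the annotated start in bases on the x axis and 1 line per promoter. Fcgr1, Fcgr3, Fcgr4 and Fcrla carry a PU.1 core, and Fcgr2b, Fcer1g and Fcgrt carry no match.

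Depth and labels bear on all values. Total estimated counts ran from 6023510 to 15368616, and CD103+ DC1 replicate 3 was the shallowest library and stood apart, with Spearman correlations of 0.768 to 0.882 with the others over tested genes. Reads of Rag2, the deleted gene, were found in the libraries labelled Rag2-/- (0.146 to 2.59 CPM, counts scaled to library size) and in neither library labelled WT, so hosts are named as labelled. The labels do not say which part of the gene was deleted, so these counts do not check the label. Markers of DC1 summed to 5912 to 10320 CPM in CD103+ DC1 and to 1038 to 1445 CPM in ISG+ DC, and those of CD11b+ cDC2 to 203 to 215 CPM and 2576 to 3319 CPM. Pan-DC markers summed to 5833 to 7499 CPM, most of it the MHC class II gene H2-Ab1 (4427 to 6115 CPM). Between hosts, 5 of 6 pan-DC markers were lower in WT ISG+ DC at an unadjusted p under 0.05, against 9.88% of all genes in either direction. Flt3, the receptor of the DC growth factor, passed after adjustment, at 145 and 91.3 CPM in Rag2-/- and 15.8 and 32.4 CPM in WT ISG+ DC (edgeR adjusted p = 0.0411). Zbtb46, a transcription factor of conventional DC, had 157 and 111 CPM against 32.2 and 52.3 CPM (edgeR adjusted p = 0.0534).

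ISG+ DC were first set against CD103+ DC1 of the same hosts, those labelled Rag2-/-. Transcripts of all 3 activating IgG receptors and of the signalling chain were higher in ISG+ DC, Fcrla was lower, and neither Fcgr2b nor Fcgrt passed the test. Thus 4 of 7 members rose at an edgeR adjusted p under 0.05. Fcrla passed too, but entered the test only through CD103+ DC1, so its call is no support and its counts are given instead. Over all genes tested 2.83% rose, 0.862% fell and 3.69% passed in either direction. At an unadjusted p under 0.05, 5 members were higher, and Fcrla was lower, against 14.9% of all genes, and 8.8% higher. Groups did not overlap, with ISG+ DC higher, for 5 members, as for 23.9% of genes, and with ISG+ DC lower for Fcrla, as for 22%. The members' median log2 fold change was 1.90, against -0.02 for all genes. In bulk samples, fewer cells of a type and less RNA per cell cannot be told apart.

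Fcgr1, the high-affinity IgG receptor, had 44.2 and 27.2 CPM in CD103+ DC1 and 354 and 419 CPM in Rag2-/- ISG+ DC. Both ISG+ DC libraries lay far above both CD103+ DC1 libraries. The log2 fold change was 3.43 ± 0.32 (SE; edgeR adjusted p = 0.000527), the most precisely measured rise among the activating receptors, and it stayed between 3.15 and 3.82 when any 1 library was left out.

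Fcgr3, the low-affinity activating receptor, had 12.9 and 2.57 CPM in CD103+ DC1 and 75.0 and 192 CPM in Rag2-/- ISG+ DC. The groups did not overlap, but replicates differed several-fold within each. The rise was 16.4-fold, a log2 fold change of 4.04 ± 0.65 (SE; edgeR adjusted p = 0.00663). Left-out libraries moved it: of the CD103+ DC1 libraries, omitting replicate 2 gave a log2 value of 5.68 and omitting replicate 3 gave 3.39, while omitting ISG+ DC Rag2-/- replicate 3 gave 3.22, and it passed each time.

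Fcgr4, the activating receptor for IgG2 subclasses, had 4.52 and 3.25 CPM in CD103+ DC1 and 27.6 and 95.0 CPM in Rag2-/- ISG+ DC. It was low in both CD103+ DC1 libraries, and the ISG+ DC replicates were unequal. The rise was 15.5-fold, 3.95 ± 0.62 on the log2 scale (SE; edgeR adjusted p = 0.00557). Without ISG+ DC Rag2-/- replicate 3 the log2 value was 2.81 and without replicate 2 it was 4.59, and both passed.

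Fcgr2b, the inhibitory receptor, had 71.5 and 112 CPM in CD103+ DC1 and 142 and 239 CPM in Rag2-/- ISG+ DC. The groups did not overlap, yet the gap was small beside that of the activating receptors. The log2 fold change was 1.05 ± 0.32 (SE), with an edgeR adjusted p of 0.130 and an unadjusted p of 0.00836. The call turned on the processing: it passed with no filter on low counts (adjusted p = 0.00956 in edgeR) and without CD103+ DC1 replicate 3 (1.43, adjusted p = 0.000714 in edgeR). Summing Fcgr2b and Fcgr3, an alternative chosen after the data were seen, gave 84.5 and 115 CPM in CD103+ DC1 and 217 and 431 CPM in Rag2-/- ISG+ DC. That sum rose 3.25-fold (log2 1.70 ± 0.33 SE, edgeR adjusted p = 0.0173). Reads put under Fcgr3 made up 15.3% and 2.22% of the sum in CD103+ DC1 and 34.6% and 44.6% in Rag2-/- ISG+ DC.

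Fcer1g, the shared signalling chain, had 49.7 and 127 CPM in CD103+ DC1 and 323 and 333 CPM in Rag2-/- ISG+ DC. The ISG+ DC libraries were nearly equal and the CD103+ DC1 libraries were not. It rose 3.74-fold (log2 1.90 ± 0.39 SE, edgeR adjusted p = 0.0221). The log2 value was 1.37 without CD103+ DC1 replicate 2 and 2.74 without replicate 3, and the call was lost in a fit of the 2 groups alone (1.89, edgeR adjusted p = 0.0752).

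Fcgrt, the FcRn heavy chain, had 104 and 52.2 CPM in CD103+ DC1 and 52.2 and 51.8 CPM in Rag2-/- ISG+ DC. CD103+ DC1 replicate 2 alone was high, and replicate 3 matched the ISG+ DC level. Its log2 fold change of -0.59 ± 0.40 (SE) did not pass (edgeR adjusted p = 0.565), and it was -0.01 without that replicate.

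Fcrla had 30.0 and 15.6 CPM in CD103+ DC1, from 451 and 91 counts, and 0 counts in both Rag2-/- ISG+ DC libraries. It was therefore detected in both libraries of the first population and in neither of the second. A count of 3 over the ISG+ DC group stands for 0.101 CPM, so the CD103+ DC1 mean was at least 225-fold higher than that limit, which covers counting error alone. Markers of B cells, which also express Fcrla, were low throughout. Ms4a1 and Blk were at 0 in all 6 libraries, and the 10 B cell markers in the table summed to 14.7 to 16.2 CPM in CD103+ DC1 and 18.7 to 32.4 CPM in Rag2-/- ISG+ DC. Cd22, at 5.58 and 14.4 CPM in CD103+ DC1 and 27.5 and 16.2 CPM in Rag2-/- ISG+ DC, made up most of the sum in 3 of these 4 libraries, CD103+ DC1 replicate 2 being the exception. Cr2 followed Fcrla at a low level, with 2.13 and 0.171 CPM in CD103+ DC1 and 0 in both Rag2-/- ISG+ DC libraries. Cd79a (0.466 and 0 CPM) and Pax5 (0 and 0.171 CPM) were likewise seen in CD103+ DC1 and at 0 in ISG+ DC. The part of B cells in the level of Fcrla was not tested.

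**Figure D2:**
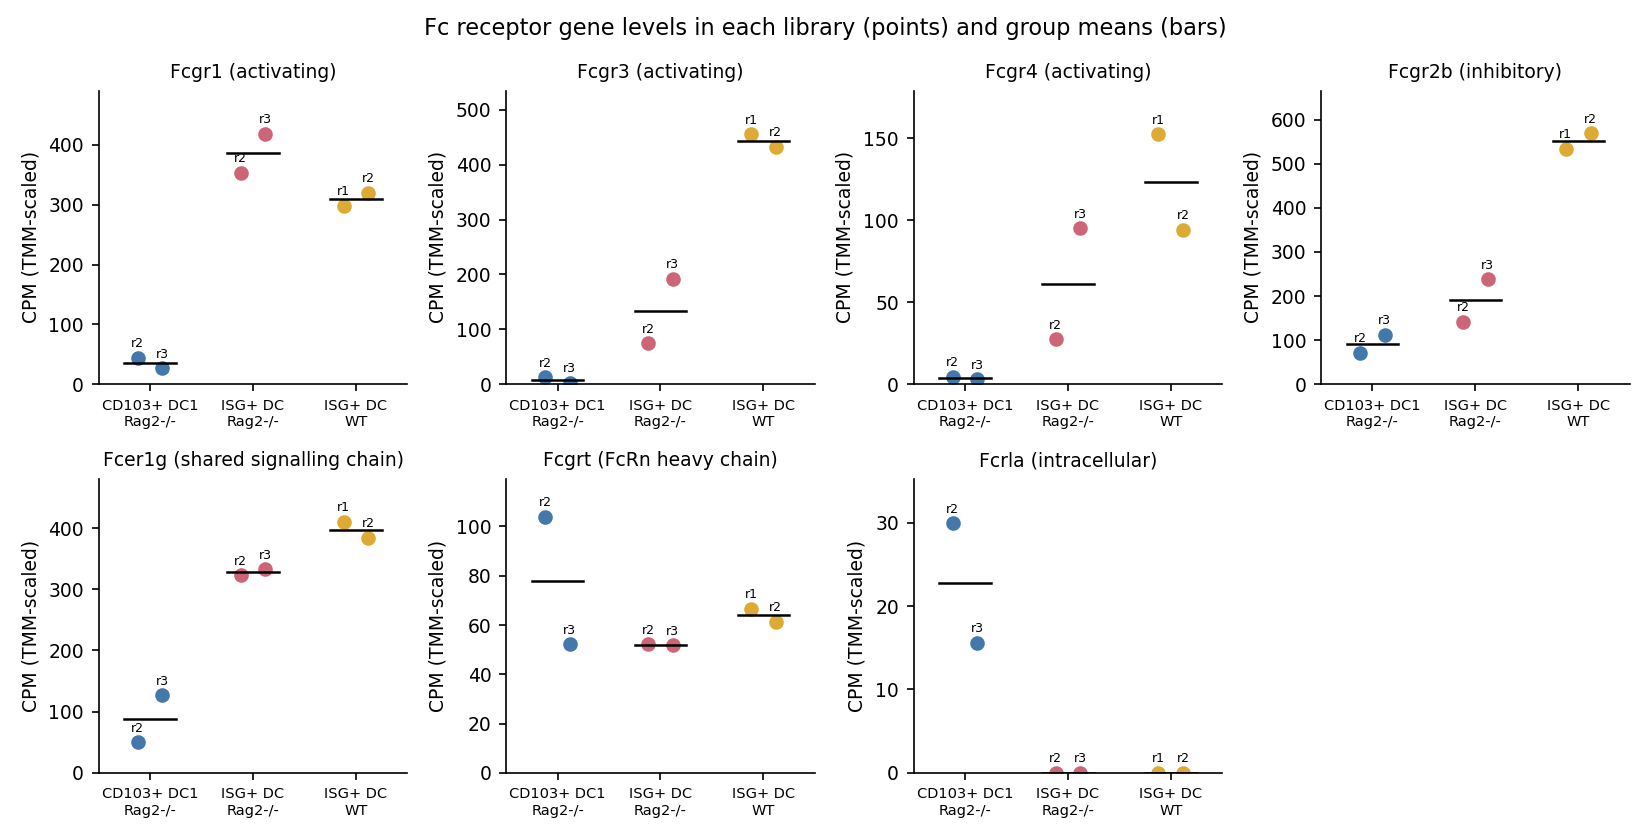
CPM of each of the 7 members in each of the 6 libraries, 1 panel per gene with its own axis from 0, points for single libraries and a line for the group mean. Fcgr1 is at 27.2 to 44.2 CPM in CD103+ DC1 and at 299 to 419 CPM in ISG+ DC, Fcgr2b and Fcgr3 are highest in WT hosts, and Fcrla is seen in CD103+ DC1 only.

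The second comparison set ISG+ DC of WT hosts against those of Rag2-/- hosts. Here 0 of 7 members passed at an edgeR adjusted p under 0.05, while 0.552% of all genes tested did, 0.287% higher and 0.265% lower. At an unadjusted p under 0.05, 2 of 7 members (Fcgr2b and Fcgr3) were past it, both higher in WT hosts, against 9.88% of all genes and 4.56% that were higher. DESeq2 called 1 of 7, Fcgr2b. Groups did not overlap, with WT higher, for Fcgr3, Fcgr2b, Fcer1g and Fcgrt, as for 21.4% of genes, and with WT lower for Fcgr1, as for 23.1%.

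Fcgr2b had 534 and 570 CPM in WT ISG+ DC, against 142 and 239 CPM in Rag2-/- ISG+ DC. Both WT libraries lay well above both Rag2-/- libraries. The value was 2.90-fold higher (log2 1.54 ± 0.33 SE, edgeR adjusted p = 0.0700). It passed under DESeq2 (1.55, adjusted p = 0.00132), in edgeR with no filter (adjusted p = 5.35e-05) and in edgeR on the 2 groups alone (adjusted p = 0.0093). The CD103+ DC1 libraries are not part of this comparison, so calls made in edgeR without either of them are no added support. Leaving out ISG+ DC libraries moved the log2 value from 1.21 (without Rag2-/- replicate 2) to 1.96 (without Rag2-/- replicate 3).

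Fcgr3 had 455 and 433 CPM in WT ISG+ DC, against 75.0 and 192 CPM in Rag2-/- ISG+ DC. The WT libraries were alike and above both others. The value was 3.33-fold higher, with an SE of 0.58 on the log2 scale and an edgeR adjusted p of 0.295. With no filter (adjusted p = 1.39e-05) and on the 2 groups alone (adjusted p = 0.0333) it passed in edgeR. The fit with no filter hardly moved the log2 value (1.73) but gave an SE of 0.325. Its p-value there says little of the spread between replicates. DESeq2 gave an adjusted p of 0.0643. The log2 value ran from 1.21 without Rag2-/- replicate 2 to 2.56 without Rag2-/- replicate 3.

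The sum of Fcgr2b and Fcgr3 does not depend on how reads were split. It was 989 and 1003 CPM in WT ISG+ DC against 217 and 431 CPM in Rag2-/- ISG+ DC, or 3.08-fold higher (log2 1.62 ± 0.33 SE, edgeR adjusted p = 0.0579). Fcgr3 took 46.0% and 43.2% of it in WT ISG+ DC.

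Fcgr1 went the other way, with 299 and 320 CPM in WT ISG+ DC against 354 and 419 CPM in Rag2-/- ISG+ DC. The gap was small, with a log2 fold change of -0.32 ± 0.29 (SE; edgeR adjusted p = 0.832). Fcgr4 had 152 and 94.3 CPM in WT ISG+ DC, which overlapped the 27.6 and 95.0 CPM of Rag2-/- hosts. Its log2 fold change was 1.01 ± 0.55 (SE; edgeR adjusted p = 0.623), and it ran from 0.37 without Rag2-/- replicate 2 to 2.16 without Rag2-/- replicate 3.

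Fcer1g had 411 and 385 CPM in WT ISG+ DC, and Fcgrt had 66.6 and 61.3 CPM. Each was slightly above its Rag2-/- level, by 0.28 ± 0.37 (SE; edgeR adjusted p = 0.926) and 0.30 ± 0.40 (SE; edgeR adjusted p = 0.927) on the log2 scale. Fcrla had 0 counts in both WT libraries too, where a count of 3 over the group stands for 0.141 CPM, so no fold between hosts is given.

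**Figure D3:**
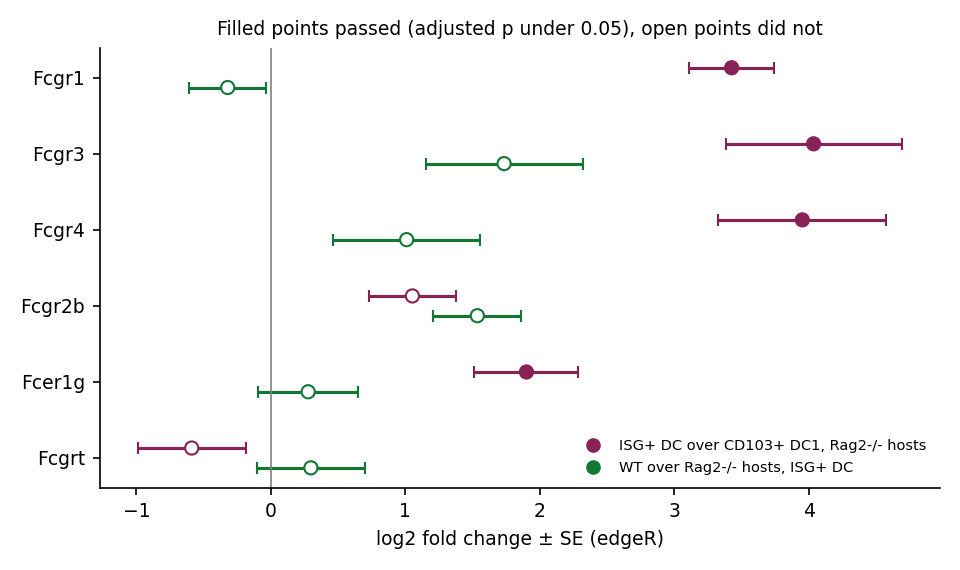
Log2 fold change (x axis) of 6 members in both comparisons, with filled points for those that passed. Error bars are 1 standard error, derived from the F statistic of the edgeR test. Fcrla is left out because its ISG+ DC counts were 0. Fcgr1, Fcgr3 and Fcgr4 lie at 3.43 to 4.04 between populations, while between hosts Fcgr2b and Fcgr3 lie highest and Fcgr1 lies below 0.

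Summed markers of monocytes and macrophages, which express these receptors, were higher where Fcgr3 and Fcgr2b were higher. All 16 markers were detected. By the edgeR test 11 of 16 were higher in ISG+ DC than in CD103+ DC1, against 2.83% of all genes. Between hosts 1 of 16 (Apoe) was higher in WT ISG+ DC, against 0.287% of all genes. The summed level of the 16 markers was 1092 to 1237 CPM in CD103+ DC1, 3613 to 5492 CPM in Rag2-/- ISG+ DC and 10860 to 10970 CPM in WT ISG+ DC. Lyz2, Apoe, Csf1r and Mrc1 carried most of the WT sum. Between hosts 12 of 16 had an unadjusted p under 0.05, against 9.88% of all genes, and some markers of the list did not go the same way. Plac8 had 206 and 213 CPM in Rag2-/- and 91.3 and 130 CPM in WT ISG+ DC, and Ly6c2 had 38.0 and 28.7 CPM against 12.5 and 11.2 CPM. Ccr2 (log2 -0.04) and Vcan (log2 -0.17) were nearly level between hosts. Csf1r, the receptor for the macrophage growth factor, had 32.9 and 40.9 CPM in CD103+ DC1, 436 and 620 CPM in Rag2-/- ISG+ DC and 1243 and 1121 CPM in WT ISG+ DC. Mertk, an engulfment receptor of macrophages, stayed between 2.91 and 18.0 CPM in Rag2-/- hosts and was 86.2 and 42.1 CPM in WT hosts. No marker of the list was at 0 throughout a group, although Ly6c2 was at 0 in CD103+ DC1 replicate 3, and the part of these cells in the result was not tested. Neutrophil markers summed to 12.4 to 38.6 CPM in Rag2-/- hosts and 139 to 149 CPM in WT hosts. The WT sum was nearly all Csf3r (126 and 134 CPM, 7.46-fold higher than in Rag2-/- ISG+ DC, edgeR adjusted p = 0.035). Cxcr2 went the other way without passing (log2 -0.80, edgeR adjusted p = 0.888), and S100a8, Elane, Camp and Ngp were at 0 in all 6 libraries. Fibroblast and matrix markers summed to 659 to 1080 CPM in Rag2-/- ISG+ DC and 47.3 to 369 CPM in WT ISG+ DC. Their median log2 fold change was -2.11, with 0 of 8 passing and 3 at an unadjusted p under 0.05, against 9.88% of all genes. The part of neutrophils and of fibroblast or tumor cells in the difference between hosts was not tested. NK cells, which express Fcgr3, left 0.2 to 5.36 CPM of summed markers in any library.

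**Figure D4:**
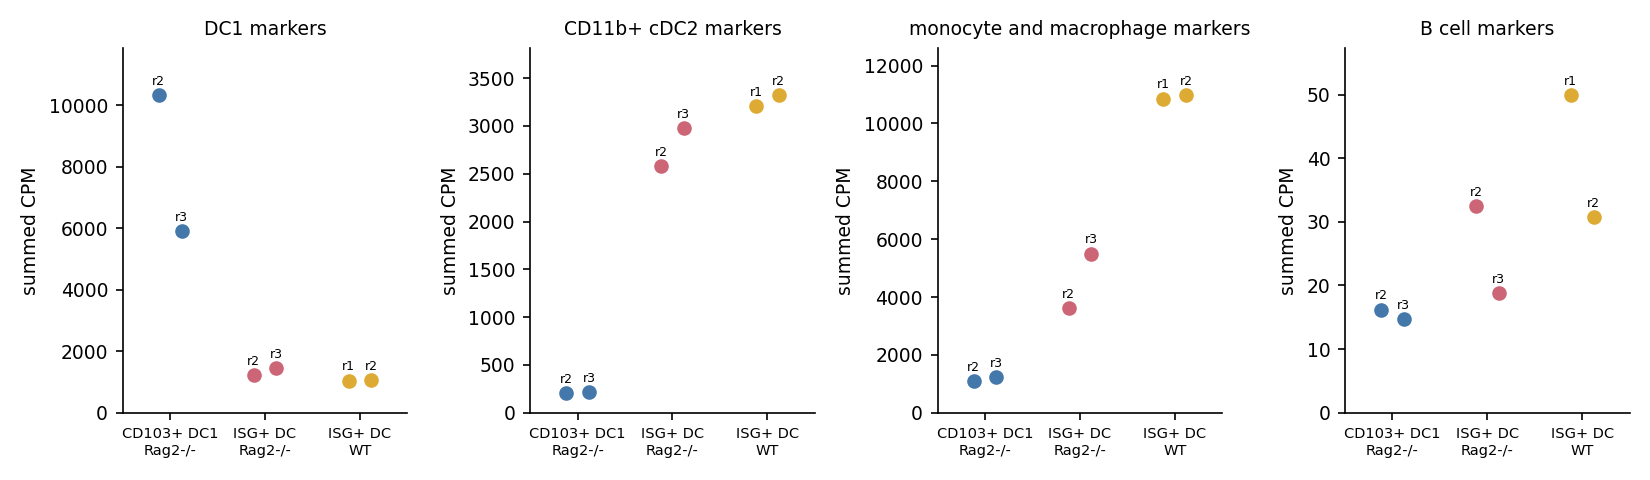
Summed CPM (y axis, from 0, scaled per panel) of the markers of DC1, CD11b+ cDC2, monocytes and macrophages, and B cells, with points for single libraries in the 3 groups. Monocyte and macrophage markers step up from 1092 to 1237 CPM in CD103+ DC1 to 10860 to 10970 CPM in WT ISG+ DC, and B cell markers stay at or under 49.9 CPM.

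The balance of activating to inhibitory receptors was taken as the summed CPM of Fcgr1, Fcgr3 and Fcgr4 over that of Fcgr2b, compared only between libraries. A sum of CPM weights long transcripts more, and Fcgr1 (2589 bases) is longer than Fcgr3 (1324 to 1347) and Fcgr4 (1256). Because the mix of the 3 genes differed between groups, their lengths bear on differences in the ratio too. The ratio was 0.862 and 0.295 in CD103+ DC1, 3.22 and 2.95 in Rag2-/- ISG+ DC and 1.70 and 1.49 in WT ISG+ DC. Groups did not overlap in either comparison, and Rag2-/- ISG+ DC were highest. The mean log2 ratio was 2.61 higher in ISG+ DC than in CD103+ DC1 and 0.667 ± 0.135 (SD, n = 2) in WT against 1.62 ± 0.0866 (SD, n = 2) in Rag2-/- ISG+ DC. The exact two-sided permutation p was 0.333 for each, the smallest that 2 against 2 allows. Without Fcgr3, whose reads are shared with Fcgr2b, the ratio was 0.681 and 0.272 in CD103+ DC1, 2.69 and 2.15 in Rag2-/- ISG+ DC and 0.844 and 0.727 in WT ISG+ DC. The hosts then differed by 3.07-fold rather than 1.94-fold. Fcgr2b remains below the line as an estimated part of the pair, so this ratio depends on the split of reads too. Fcgr3 over Fcgr2b alone went the other way, 1.24-fold higher in WT, with groups that overlapped (exact two-sided permutation p = 0.667).

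**Figure D5:**
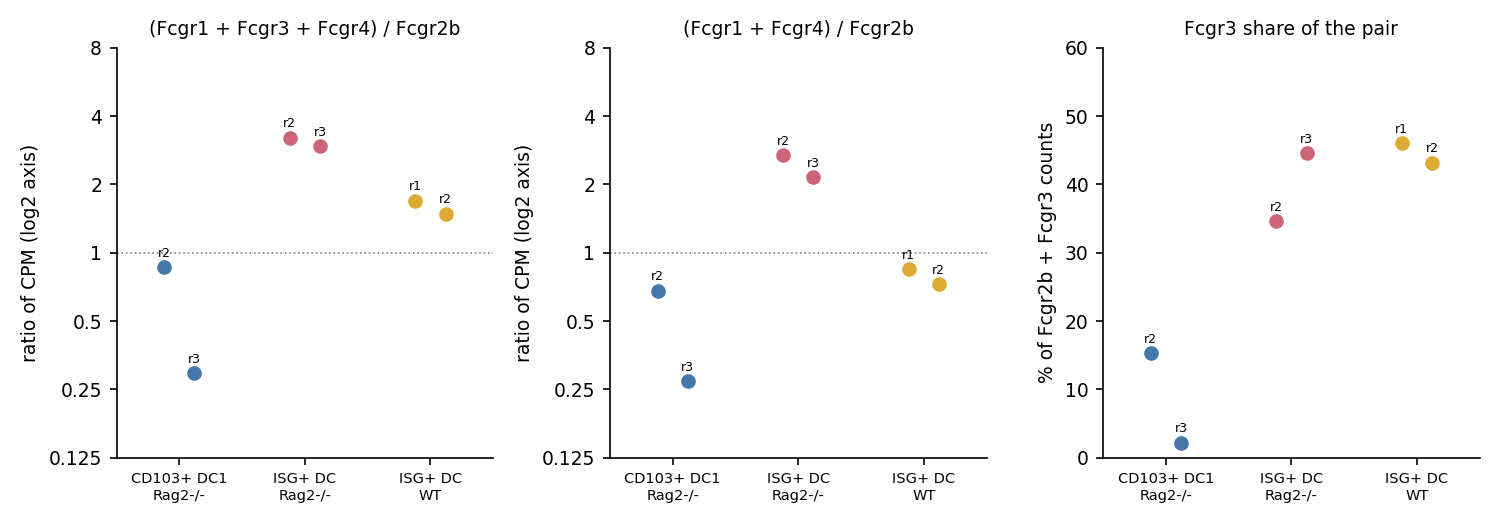
Ratio of activating to inhibitory Fc gamma receptor CPM in each library on a log axis, with all 3 activating genes (left) and with Fcgr1 and Fcgr4 only (middle), and the percentage of the Fcgr2b and Fcgr3 counts put under Fcgr3 (right). With all 3 genes Rag2-/- ISG+ DC are highest at 2.95 to 3.22, WT ISG+ DC lie at 1.49 to 1.70 and CD103+ DC1 at 0.295 to 0.862.

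Levels of different genes were compared per kilobase of transcript, with the range given by the shortest and longest annotated transcript. Fcer1g was the highest member in all 6 libraries, at 72.8 to 188 CPM per kb in CD103+ DC1, 474 to 494 in Rag2-/- ISG+ DC and 563 to 610 in WT ISG+ DC. Among the 4 IgG receptor chains, Fcgr2b led in both CD103+ DC1 libraries under any length, at 20.2 to 104 CPM per kb, with Fcgr1 at 17.1 and 10.5. In Rag2-/- ISG+ DC replicate 2, Fcgr1 led Fcgr2b under any length, at 137 CPM per kb against at most 131. In replicate 3 the order of Fcgr1 (162 CPM per kb) and Fcgr2b (67.4 to 220 in replicate 3) depends on the length taken. In WT ISG+ DC, Fcgr3 reached 321 to 344 CPM per kb, above Fcgr1 at 115 and 124, and its order against Fcgr2b (151 to 526) again depends on the length.

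Of genes of ITAM signalling, not all of them specific to Fc receptors, 5 of 27 tested rose in ISG+ DC of Rag2-/- hosts and 0 fell. Of all genes tested, 2.83% rose and 0.862% fell. The list's median log2 fold change was 0.51. The Src-family kinase Fgr had 27.1 and 12.2 CPM in CD103+ DC1 and 331 and 293 CPM in Rag2-/- ISG+ DC (15.7-fold, edgeR adjusted p = 0.000599). The ITAM adapter Tyrobp had 28.3 and 17.6 against 170 and 175 CPM (7.46-fold, edgeR adjusted p = 0.00104). Syk, the kinase that binds the phosphorylated ITAM, had 144 and 122 against 452 and 553 CPM (log2 1.92 ± 0.25 SE, edgeR adjusted p = 0.00194). In each of these genes the groups lay well apart. The adapter Lcp2 also rose (log2 1.84, edgeR adjusted p = 0.00824). Between hosts 0 of 27 passed, against 0.552% of all genes, and 2 had an unadjusted p under 0.05, against 9.88%. Syk was at 631 and 737 CPM in WT ISG+ DC.

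On the inhibitory side, 1 of 16 tested genes rose in ISG+ DC of Rag2-/- hosts and 0 fell, with a median log2 fold change of 0.30, against 2.83% of all genes that rose. That gene was Dok2, an adapter that dampens kinase signalling, with 5.12 and 0 CPM in CD103+ DC1 and 62.8 and 100 CPM in Rag2-/- ISG+ DC (edgeR adjusted p = 0.0184). With 77 and 0 counts in CD103+ DC1, Dok2 entered the test only through ISG+ DC, so its call is no support. That call was also lost with DESeq2 (adjusted p = 0.0754) and on the 2 groups alone (edgeR adjusted p = 0.0691). DESeq2 instead called Pag1 (log2 1.70, adjusted p = 0.00236) and Csk (log2 1.21, adjusted p = 0.00465), which encode partners in restraining Src-family kinases, and both also passed in edgeR with no filter (adjusted p = 0.00906 and 0.00352). Inpp5d, which encodes SHIP-1, had 597 and 623 CPM in CD103+ DC1, 548 and 572 CPM in Rag2-/- ISG+ DC and 491 and 430 CPM in WT ISG+ DC. Its levels thus lay close together (log2 -0.12, edgeR adjusted p = 0.878 between populations). Ptpn6, the phosphatase SHP-1, had 390 and 583 CPM, 725 and 725 CPM, and 489 and 487 CPM in the same order. Between hosts 0 of 16 passed, against 0.552% of all genes.

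Other receptors that signal through the Fcer1g chain included strong risers. Of 16 listed, 15 were in the table and 10 were tested. Of these, 5 rose in ISG+ DC of Rag2-/- hosts and 0 fell, against 2.83% and 0.862% of all genes. The median log2 fold change of the 10 was 3.14. It takes in Pira1 and Pira11, at 0 counts in CD103+ DC1, and Pira4, at 0 counts in Rag2-/- ISG+ DC. Folds of these genes rest on a group at 0. Clec4n (Dectin-2), a receptor for fungal mannans, had 1.73 and 0.343 CPM in CD103+ DC1, 38.3 and 74.0 CPM in Rag2-/- ISG+ DC and 164 and 160 CPM in WT ISG+ DC (log2 5.56 between populations, edgeR adjusted p = 0.00104). Clec4e (Mincle), a receptor for mycobacterial glycolipid, had 0.997 and 0.856 CPM, 15.2 and 25.5 CPM, and 87.3 and 89.7 CPM in that order (log2 4.42, edgeR adjusted p = 0.00171). Its call was lost on the 2 groups alone (edgeR adjusted p = 0.0543). Cd300ld rose 14.7-fold (edgeR adjusted p = 0.000957). Pira1 and Pira2 also passed (edgeR adjusted p = 0.00754 and 0.00881), but belong to a family of near-identical genes and are uncertain. Pira1 (0 counts in CD103+ DC1) and Clec4n (26 and 2 counts there) entered the test only through ISG+ DC. Their calls are therefore no support. Between hosts 0 of 10 passed, against 0.552% of all genes. Clec4d, the partner of Clec4e, came nearest, at 3.78 and 4.89 CPM in Rag2-/- and 86.0 and 118 CPM in WT ISG+ DC (log2 4.55, edgeR adjusted p = 0.0516). These host results turned on the processing. Clec4d passed with DESeq2 (adjusted p = 1.09e-06), with no filter (edgeR adjusted p = 1.04e-10) and on the 2 groups alone (edgeR adjusted p = 0.000668). In the same settings Clec4e passed (adjusted p = 0.00117 in DESeq2, 0.00577 and 0.0135 in edgeR), and Clec4n passed with no filter and on the 2 groups alone (edgeR adjusted p = 0.01 and 0.0333).

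Among other immunoglobulin receptors and partners, 0 of 10 tested genes passed in either comparison. An unadjusted p under 0.05 was reached by 4 between populations, against 14.9% of all genes, and by 1 between hosts, against 9.88%. Other settings made calls. Fcrls, an Fc receptor-like gene, had 10.2 and 1.54 CPM in CD103+ DC1 and 32.4 and 45.0 CPM in Rag2-/- ISG+ DC, and passed with DESeq2 (adjusted p = 0.00894) and with no filter (edgeR adjusted p = 0.000386). Pigr, the receptor that carries IgA and IgM across epithelia, had 58.1 and 81.4 CPM against 24.4 and 2.19 CPM and passed with no filter (edgeR adjusted p = 0.00124). Fcrlb, a relative of Fcrla, had 1.45 and 5.40 CPM in Rag2-/- and 28.2 and 26.0 CPM in WT ISG+ DC and passed with DESeq2 (adjusted p = 0.0163). In each of these 3 genes, named for a small p, the groups did not overlap. The same held for 23.9% of all genes in the direction of Fcrls, 22% in that of Pigr and 21.4% in that of Fcrlb. The mast cell IgE receptor genes Fcer1a and Ms4a2 had 0 counts in all 6 libraries, as had the IgM receptor genes Faim3 and Fcamr. B2m, the light chain of FcRn, had 693 and 884 CPM in CD103+ DC1, 1131 and 1277 CPM in Rag2-/- ISG+ DC and 1610 and 1491 CPM in WT ISG+ DC (edgeR adjusted p = 0.207 between populations and 0.677 between hosts). Its groups did not overlap, with ISG+ DC higher as for 23.9% of all genes and WT higher as for 21.4%. Those of Fcgrt overlapped between populations. Trim21, a cytosolic antibody receptor, had 61.4 and 57.6 CPM, 94.2 and 80.9 CPM, and 56.6 and 50.7 CPM in that order. It was therefore highest in Rag2-/- ISG+ DC, without passing (edgeR adjusted p = 0.503 and 0.563).

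Of the phagocytic cup's actin machinery, 1 of 22 tested genes rose between populations and 0 fell, against 2.83% of all genes that rose. The median log2 fold change was 0.38, and 0 of 22 passed between hosts, against 0.552% of all genes. The riser was the unconventional myosin Myo1e, at 18.3 and 5.82 CPM in CD103+ DC1 and 107 and 123 CPM in Rag2-/- ISG+ DC (9.33-fold, edgeR adjusted p = 0.00477). It was at 163 and 211 CPM in WT ISG+ DC. The small GTPases Rhog and Rac2 passed between populations with DESeq2 (adjusted p = 0.00936 and 0.036) and with no filter (edgeR adjusted p = 0.0473 and 0.0244), both higher. Between hosts, Elmo1, an adapter for Rac activation, was lower in WT and passed with DESeq2 (log2 -0.91, adjusted p = 0.0362) and on the 2 groups alone (edgeR adjusted p = 0.0475), as did Rac2 on the 2 groups alone (log2 -0.97, edgeR adjusted p = 0.0437).

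Of 21 tested genes known to regulate Fc receptor genes, 4 rose and 1 fell between populations, and 1 rose between hosts. The shares of all genes were 2.83% and 0.862% between populations and 0.287% between hosts. Irf8, a transcription factor that defines DC1, fell from 1668 and 723 CPM in CD103+ DC1 to 135 and 179 CPM in Rag2-/- ISG+ DC (log2 -2.93 ± 0.38 SE, edgeR adjusted p = 0.00188). The myeloid factor Cebpa rose 6.70-fold (edgeR adjusted p = 0.00685), and C5ar1, the receptor for complement C5a, rose 6.63-fold (edgeR adjusted p = 0.00767). Il4ra, a chain of the interleukin-4 receptor, and Cebpb, a myeloid factor, also rose (edgeR adjusted p = 0.0112 and 0.00867). Cebpb was the gene that passed between hosts in the edgeR test of all 6 libraries, at 552 and 549 CPM in WT against 85.8 and 121 CPM in Rag2-/- ISG+ DC (5.33-fold, edgeR adjusted p = 0.0194). Without ISG+ DC Rag2-/- replicate 2 this call was lost (log2 2.19, edgeR adjusted p = 0.106). Irf1, an interferon-gamma target, had 151 and 145 CPM in Rag2-/- and 341 and 320 CPM in WT ISG+ DC (2.23-fold, edgeR adjusted p = 0.0893). It passed with DESeq2 (adjusted p = 0.000896), with no filter (edgeR adjusted p = 0.0116) and on the 2 groups alone (edgeR adjusted p = 0.00853).

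The genes whose pattern over the 6 libraries was most like each member were ranked by Pearson correlation of log2(CPM + 1) among 8043 genes. These are descriptions over 6 libraries that share their groups and depth. For Fcgr1 they were Lass6 (0.9985), Sbno2 (0.9974) and Ccr2 (0.9953). Fcgr3 was matched by C1qb (0.9991), Plaur (0.9979) and Lyz1 (0.9968), and Fcgr2b by Flrt2 (0.9987), Mcart1 (0.9912) and Fth1 (0.9892). Closest to Fcgr4 were Fam160b1 (0.9981), Anxa4 (0.9977) and Mccc1 (0.9964). Fcer1g went with Clec4a3 (0.9967), Ms4a6d (0.9959) and Emb (0.9930), and Fcrla with Fgd2 (0.9990), Ppt1 (0.9970) and Camk1d (0.9961). Fcgrt had the weakest likeness, with Optn (0.9625), Man2b1 (0.9598) and Ppp1r12b (0.9569). With only 3 genes kept per member, absence from a member's list says little of a gene's likeness to it. Fcgr1 and Fcgr3 had a correlation of 0.916 with each other.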

How the data were processed

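Bulk RNA of 6 libraries was measured. The authors deposited unnormalized estimated counts from RSEM, 1 row per gene symbol. Per the submitters' processing notes, Bowtie 1.2.3 and RSEM 1.3.1 were used with build mm9. Annotation, strand setting and read filters: not given in the sources used here. Per the labels, the kit was for stranded total RNA, although the molecule field names polyA RNA. Estimated counts (16.1% not whole) were rounded. In R 4.3.3, edgeR 4.0.16 (filterByExpr, TMM, quasi-likelihood fit over all 6 libraries) tested 13223 genes, with Benjamini-Hochberg adjustment over all of them and a threshold of 0.05, two-sided. Residual degrees of freedom were 3, prior degrees of freedom 7.34, and the coefficient of biological variation common to all genes 0.703. The p-values of this fit measure the spread between libraries, which may be technical. Standard errors (SE) were derived as the absolute log2 fold change over the square root of the test's F statistic.

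CPM are counts scaled by TMM. Genes at 0 were compared with a limit of 3 counts over a group. Alternatives were DESeq2 1.42.0, other scalings, no filter, the 2 groups alone, left-out libraries, a replicate block, pooled ISG+ DC and the sum of Fcgr2b and Fcgr3. With no filter, the edgeR p-values lay near those of a normal distribution at the log2 value over its SE. Each gene's own spread between libraries bore little on them, so a call gained with no filter is no added support. The procedure was tested on simulated data.

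Named genes were the 7 members, in each of 6 pathway lists the 3 genes with the smallest p in either comparison, a fixed set (Tyrobp, Syk, Inpp5d, Ptpn6, B2m, Trim21, Fcer1a, Ms4a2, Cd247, Rag2), the 3 genes most like each member with a mean of at least 10 CPM, and cell type markers. Other genes of a list that passed were named after their values were seen, as were Faim3 and Fcamr. The members and lists were chosen with earlier results of these data known. Promoters came from RefSeq (GRCm38.p6) and coding sequences from GENCODE M21. A protein motif search was not made. Some genes that the rule or the lists include are not reported here.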

Additional observations from a re-analysis of the deposited data

How the results depend on the processing

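No member, pathway gene named by rule or gene of the fixed set for which alternatives were run changed direction in them. They were not run for Fcrla between hosts, for marker genes or for the genes most like a member. Between populations 488 genes passed, against 1109 with DESeq2, 1087 with no filter, 297 on the 2 groups alone, 659 with the replicate block, and 278 to 2068 with 1 library left out. Without CD103+ DC1 replicate 2 there were 2068, without CD103+ DC1 replicate 3 774, and without ISG+ DC Rag2-/- replicate 3 278. Between hosts 73 passed, against 571, 555 and 444 in the first 3 of these settings and 27 to 801 with 1 library left out.

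Of the 7 members, 5 passed between populations (Fcrla included), against 4 on the 2 groups alone, 6 with no filter and 5 to 6 when 1 library was left out. Between hosts 0 passed, against 1 with DESeq2, 2 with no filter, 2 on the 2 groups alone and 0 to 2 with 1 library left out. The log2 difference in the activating to inhibitory ratio was 2.61 between populations (1.84 to 3.39 with 1 library left out). Between hosts it was -0.96 (-1.05 to -0.86), and -1.62 with Fcgr1 and Fcgr4 only.

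Whether replicate numbers pair the Rag2-/- samples was not settled. Same-numbered libraries had a correlation of -0.0024 between their deviations, and the replicate block left 5 members called. Between hosts no paired analysis was possible because WT and Rag2-/- ISG+ DC share the number 2 only.

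With 2 libraries a group, a shallow CD103+ DC1 replicate 3 and Fcgr2b and Fcgr3 reads split by a model, small differences cannot be resolved. Where 1 library was left out, the lone library was assumed to vary like the other groups.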
